A study of Caenorhabditis elegans with 9 samples.

Results

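Short sequence motifs that recur in the open chromatin of introns in Caenorhabditis elegans embryos are described here, with the genes they were assigned to and the open chromatin of those genes in embryos and in starved larvae. They are the 10 motifs, of 57 in the deposited motif tables, whose header names the set of embryo intronic DNase I hypersensitive sites (DHS). The other 47 motifs came from the promoter (5), intergenic (9), noncoding (29) and footprint (4) sets. The 10 motifs are numbered in the order of the deposited table, and their gene lists hold 790 entries for 699 different genes. The study mapped DHS by DNase-seq, which sequences the short fragments that DNase I releases from exposed DNA of nuclei. Wild-type N2 animals gave 4 embryo replicates (A to D), labelled as mid-embryogenesis at roughly 40 cells, and 5 replicates of larvae in L1 arrest (V to Z), in which hatchlings without food stop developing. Whole embryos and whole larvae were used, so a DHS may come from any of their cell types. The deposited lists merge the replicates of a stage, and the motifs were found in the embryo data alone.

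A DHS is a stretch of DNA that nucleosomes leave exposed, and most known enhancers and promoters are DHS. Introns of C. elegans genes often hold enhancers that set the tissue or the time of expression, and transcription factors recognise short words in them. A motif found by counting recurrent words need not be such a binding site.

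The sequences are shown because gene lists and values below are read against them. Each is the word found in most sequences of its motif, written 5′ to 3′ as deposited. Capitals mark positions that every word of the motif shares and lower case marks positions that vary. Of motif 1, which is 12 bases wide, the 11 fixed bases are shown.
motif 1: AATTTGAATTT
motif 2: ACCGCgaCGC
motif 3: ACTACAAAcT
motif 4: CAAATTTTcA
motif 5: CCcCGCCCAC
motif 6: CGtGGCGAGAC
motif 7: GAAGCTATGC
motif 8: GCTGCTGCt
motif 9: GCaGCCGAC
motif 10: TGCGCCTTTAA

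The words ranged from A and T rich to G and C rich. Motifs 1, 3 and 4 held 12.6%, 29.0% and 20.0% G and C over their matrix. Motifs 7 and 10 held 50.0% and 45.5%, and motifs 2, 5, 6, 8 and 9 between 68.7% and 86.8%. Motif 8 repeats the triplet GCT. Motifs 7 and 10 consisted of 1 word each, whereas motif 2 was made of 4 words and motif 9 of 3.

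The motifs were chosen by the authors' search on the excess of sequences with the motif over control sequences, so the following values describe the choice and are not a test. Motif 3 was the most frequent, with 405 sites in 204 intronic sequences against 6 control sequences, and more sites than any other of the 57 motifs. Motif 9 followed with 280 sites in 196 sequences against 16 controls. Motif 2 had 158 sites in 107 sequences against 3 controls. The remaining 7 motifs had between 26 sites (motif 10) and 113 sites (motif 8). No control sequence held motifs 6, 7 or 10, and 15 control sequences held motif 8. The expectation value (E), the number of such motifs the authors' search would find by chance, ran from 6.3e-47 for motif 3 to 0.027 for motifs 4 and 10.

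The motifs also differed in how often they recurred within a sequence, which the choice did not use. Motif 3 had 1.99 sites per sequence that held it, motif 2 had 1.48 and motif 9 had 1.43. In the other 7 motifs this ratio lay between 1 and 1.04, and motifs 1, 6 and 8 were the ones above 1. The 3 motifs with most sites thus also had the 3 highest ratios.

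**Figure D1:**
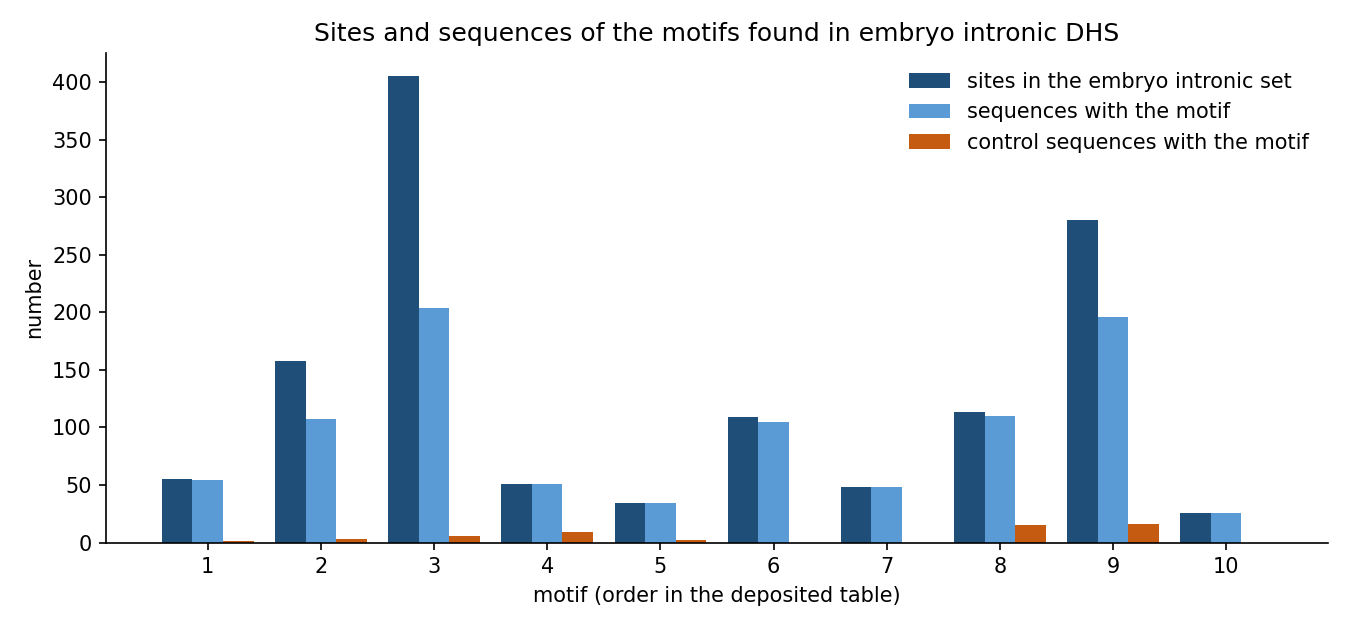
Number of sites, of intronic sequences with the motif and of control sequences with the motif (vertical axis, counts as deposited) for the 10 motifs in the order of the deposited table (horizontal axis). Motif 3 has 405 sites in 204 sequences, and only motifs 2, 3 and 9 have clearly more sites than sequences.

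Motifs 2, 3, 6, 8 and 9 had a like motif in another set, and motifs 1, 4, 5, 7 and 10 had none. Matrices were called alike where at least 8 aligned columns shared the leading base and at most 1 differed, on either strand. No pair among the 10 motifs was alike by that rule. Motif 3 matched a motif of the intergenic set over all 10 columns, and 6 genes stood in both lists, 4.88% of the genes of motif 3 and 25% of the other list. Motif 6 matched an intergenic motif over 10 columns on the opposite strand, and no gene stood in both lists. Motif 8 matched a motif of the footprint set over 9 columns on the opposite strand and shared 19 genes with it, 20.4% of its own list and 20.9% of the other. Motifs 2 and 9 matched promoter motifs over 8 and 9 columns and shared 4 and 2 genes with them.

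The noncoding set holds intronic DHS as well, so overlap with it is built in. Motif 9 matched one of its motifs over 9 columns with 109 shared genes, 66.1% of the list of motif 9 and 53.96% of the other. Motif 6 matched one over 10 of 11 columns with 80 shared genes, 77.7% of its list and 40.2% of the other. Of the 699 genes, 337 (48.2%) stood in a list of at least 1 motif from another set, the noncoding set included. The same share over all genes with an embryo intronic DHS was not counted, so this value cannot be read as an excess.

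The gene lists had from 25 genes (motif 10) to 165 genes (motif 9). Motifs 1 to 8 had 53, 71, 123, 70, 56, 103, 31 and 93 genes in that order. Motifs 4 and 5 had more genes than sequences with the motif, 70 genes for 51 sequences and 56 genes for 34. How the authors joined sites to genes is not stated here, and the positions of single sites were not used here. All 699 genes had an embryo DHS in an intron, which the set's name fixes, and 685 (98.0%) matched a protein-coding gene of the RefSeq table. They were 12.1% of the 5783 genes with an embryo intronic DHS.

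Most genes stood in 1 list (614 genes), 79 stood in 2 and 6 in 3. Lists that shared many genes had unlike words. Motifs 4 and 7 shared 27 genes, which were 38.6% of the list of motif 4 and 87.1% of the list of motif 7. Among those 27 genes were smc-3, a cohesin subunit, par-4, the LKB1 kinase of cell polarity, gip-1, a gamma-tubulin complex subunit, and gcn-1. Motifs 6 and 10 shared 9 genes, 8.74% of the first list and 36.0% of the second, among them ret-1, a reticulon, and chl-1. Motifs 8 and 9 shared 10 genes, 10.8% and 6.06% of the lists. Of 45 pairs of lists 25 shared a gene, and each of the other 22 such pairs shared at most 6.

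A shared DHS can be placed only where a gene had 1 embryo intronic DHS. That was so for 6 of the 27 genes of motifs 4 and 7 and for 4 of the 9 genes of motifs 6 and 10. In these genes both motifs lie in the same DHS, provided each lies in an intronic DHS of the gene it is assigned to. The tsr-1 gene, named for a factor of small ribosomal subunit maturation in yeast, stood in the lists of motifs 1, 4 and 7. Its only embryo intronic DHS was 115 bp wide at chrII:2467016-2467130 (ce10). An L1 arrest DHS covered 110 bp of it. The gene slr-2, in the lists of motifs 4 and 7, had its only embryo intronic DHS at chrV:18097581-18097730, of which 130 of 150 bp lay in an L1 DHS.

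**Figure D2:**
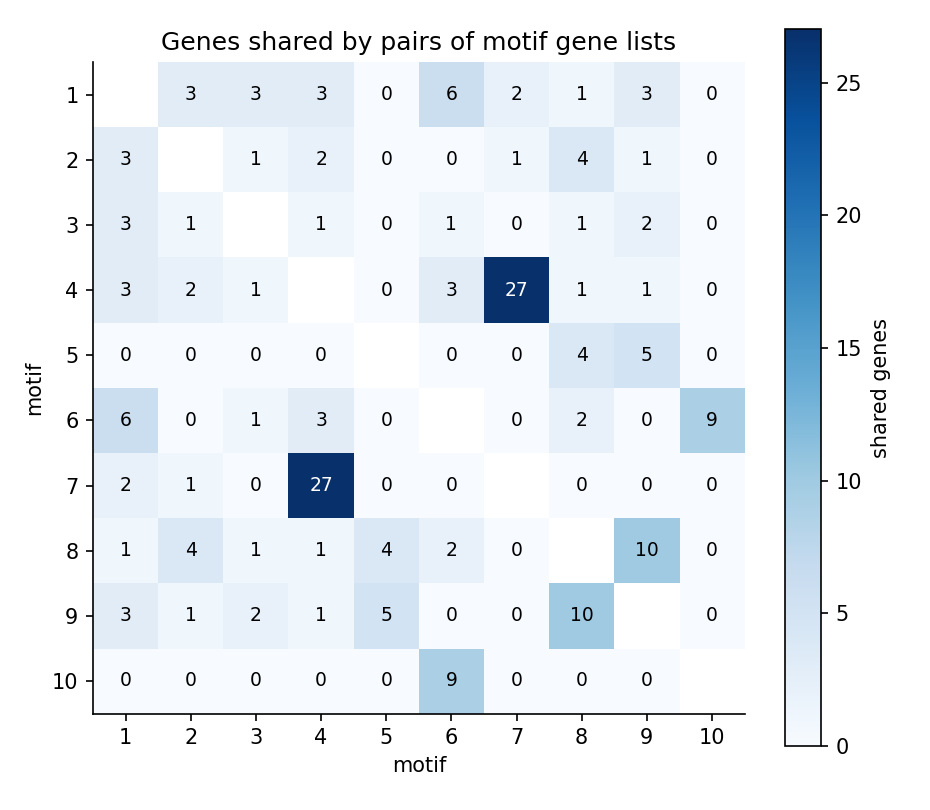
Number of genes shared by each pair of the 10 motif gene lists (both axes, motifs in the order of the deposited table, colour and figure in each cell give the number of genes). Motifs 4 and 7 share 27 genes, motifs 8 and 9 share 10, motifs 6 and 10 share 9, and all other pairs share at most 6.

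Listed genes carried more embryo DHS than other genes with an intronic DHS. The median was 3 noncoding DHS per listed gene against 2 over all 5783 genes, and 2 against 1 when intronic DHS alone were counted. At least 10 embryo noncoding DHS were assigned to 74 of the 699 genes (10.6%, 95% exact binomial interval 8.40% to 13.1%), against 3.79% over all genes. Both counts are linked, since a gene with more intronic DHS offers more sequence in which a motif can be found. Of genes with 1 embryo intronic DHS 7.87% stood in a motif list, of those with 2 DHS 12.9%, of those with 3 to 4 DHS 17.4%, of those with 5 to 9 DHS 27.9%, and of those with 10 or more 44.4%.

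Motif 8 stood out in DHS number. Its genes had a median of 7 noncoding and 5 intronic DHS, and 27 of 93 (29.0%, interval 20.1% to 39.4%) had at least 10. Motif 9 had 26 of 165 such genes (15.8%, interval 10.6% to 22.2%), with a median of 2. Motif 10 had none of 25, and motif 6 had 2 of 103. The intervals of motifs 8 and 6 did not overlap.

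The 6 listed genes with most embryo noncoding DHS had from 24 to 37. The ptp-3 gene, a receptor tyrosine phosphatase of the LAR family that acts in axon guidance, stood in the lists of motifs 4 and 8 with 37 embryo and 18 L1 noncoding DHS, and 32 of the 37 lay in introns. The nhr-27 gene, a nuclear hormone receptor gene listed for motif 8, had 28 embryo DHS, all intronic, and 13 in L1. The cadherin gene hmr-1, listed for motif 3, also had 28 embryo DHS, 20 of them intronic, and 13 in L1. The gene Y48C3A.5, in the lists of motifs 5, 8 and 9, had 26 in embryos and 21 in L1. The axon guidance gene unc-53, listed for motif 5, had 25 in embryos and 10 in L1. The potassium channel gene unc-103, listed for motif 9, had 24 and 16. In each of these genes the embryo count exceeded the L1 count, which the pick by embryo count favours. The deposited noncoding lists as a whole also hold more embryo DHS, 26644 against 16084 in L1.

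Genes with many DHS could stand in more than 1 list, and those given here were picked from the 85 such genes after their values were seen. The egl-4 gene, a cGMP-dependent protein kinase, stood in the lists of motifs 5, 8 and 9 with 13 embryo and 9 L1 noncoding DHS. The protein kinase D gene dkf-2 (motifs 8 and 9) had 23 and 14. The phosphodiesterase genes pde-3 (motifs 8 and 9) and pde-4 (motifs 2 and 8) had 18 and 10, and 17 and 11. The PDZ protein gene mpz-1 (motifs 8 and 9) had 20 and 11, and bli-4, a proprotein convertase (motifs 4 and 9), had 13 and 6. Genes in 3 lists could also carry few DHS. The emc-1 gene of the endoplasmic reticulum membrane complex (motifs 1, 4 and 7) had 5 and 3, and ufbp-1 (motifs 1, 4 and 6) had 2 and 2.

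**Figure D3:**
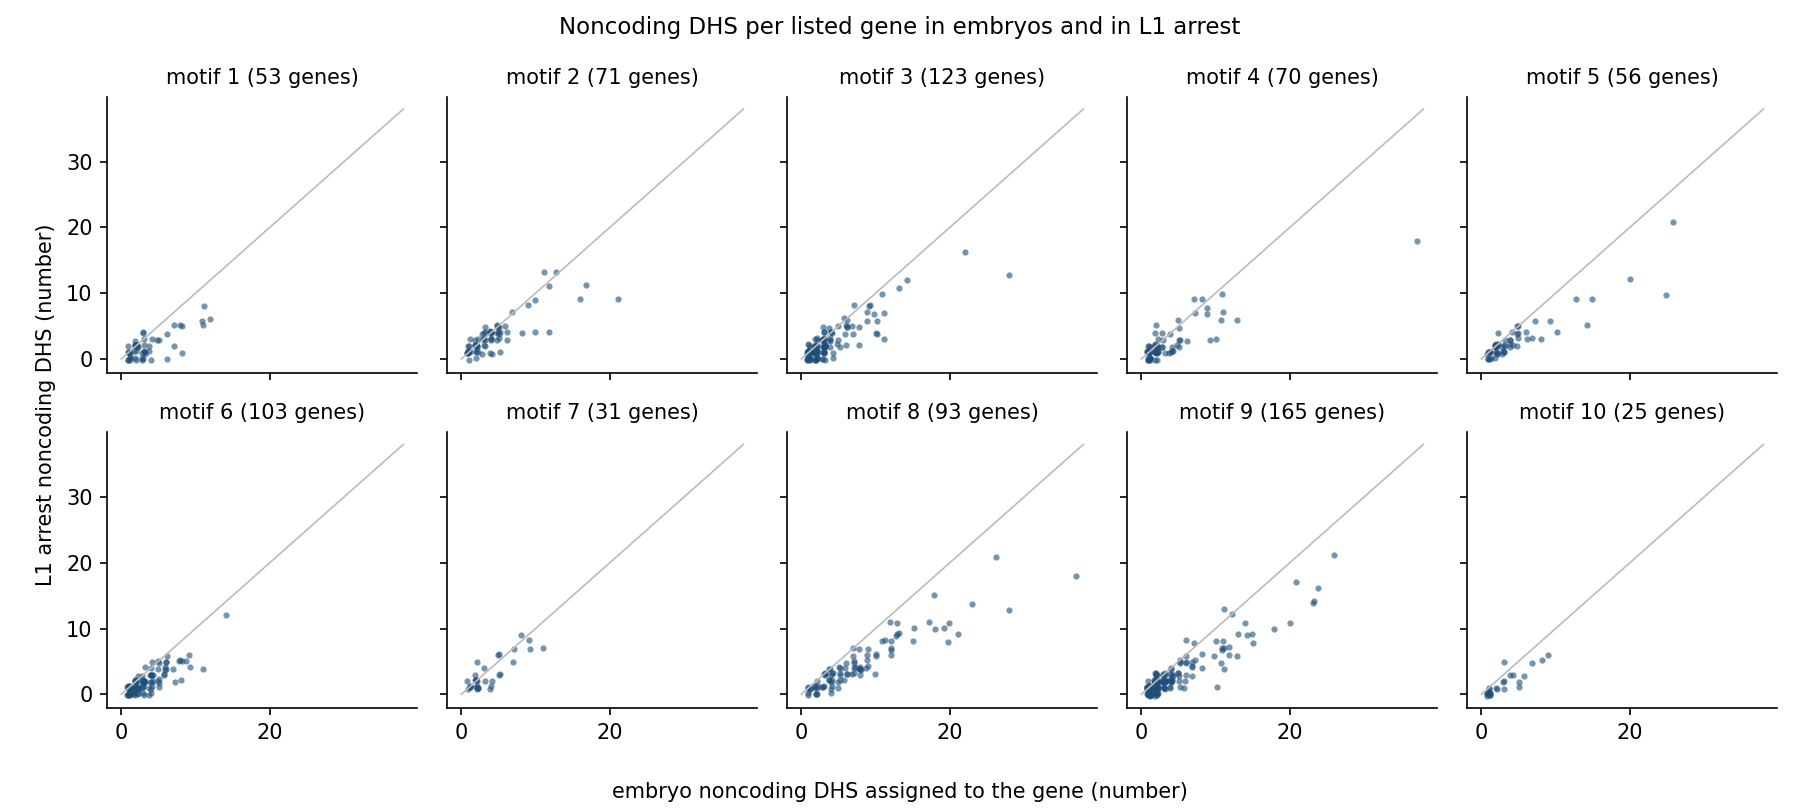
Number of noncoding DHS assigned to each listed gene in embryos (horizontal axis) and in L1 arrest (vertical axis), 1 panel per motif, with a small random shift so that points do not hide each other. The grey line marks equal numbers. Most genes lie below the line, and the highest embryo number is 37, at ptp-3, which is in the lists of motifs 4 and 8.

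The lists differed in where their genes lie on the chromosomes, which the choice of motifs did not use. In C. elegans the centres of the autosomes hold most conserved and widely expressed genes, while the arms recombine more and hold more repeats and more genes of large, young families. Of all autosomal genes with an embryo intronic DHS, 46.7% lay in the central 50% of the stretch that embryo DHS span on their chromosome. Of the listed autosomal genes 170 of 641 did (26.5%, interval 23.1% to 30.1%).

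The position separated the motifs into groups. Motif 7 had 1 of 30 autosomal genes in the central 50% (3.33%, interval 0.0844% to 17.2%). Motif 2 had 5 of 67 (7.46%, interval 2.47% to 16.6%), motif 3 had 14 of 118 (11.9%, interval 6.64% to 19.1%) and motif 9 had 22 of 142 (15.5%, interval 9.97% to 22.5%). Motif 4 had 20.6% and motif 1 had 22%, with upper bounds of 32.1% and 36.0%. These 6 intervals lay below the share of all genes. Most genes of motif 7 also stood in the list of motif 4, so the values of motifs 4 and 7 are not separate evidence. Motif 5 (51.1%), motif 6 (51.5%) and motif 8 (47.5%) had intervals that included it, and so did motif 10 (7 of 25 genes, interval 12.1% to 49.4%).

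The X chromosome held 58 of the 699 genes (8.30%, interval 6.36% to 10.6%), against 15.9% of all genes with an embryo intronic DHS. Motif 6 had 2 of 103 genes there (1.94%, interval 0.236% to 6.84%), motif 4 had 2 of 70 and motif 3 had 5 of 123. Motif 10 had none of 25, with an interval up to 13.7%. Motifs 5, 8 and 9 had 16.1%, 14.0% and 13.9% of their genes on X, and their intervals included the share of all genes. Single autosomes also stood out. Chromosome III held 45.2% of the genes of motif 7, 34.3% of those of motif 4 and 34.0% of those of motif 6, against 16.9% of all genes. Motifs 4 and 7 again largely count the same genes here. Chromosomes V and I held 32.5% and 30.1% of the genes of motif 3, against 17.8% and 16.2% of all genes. Chromosome IV held 4.07% of them, against 15.1% of all genes.

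**Figure D4:**
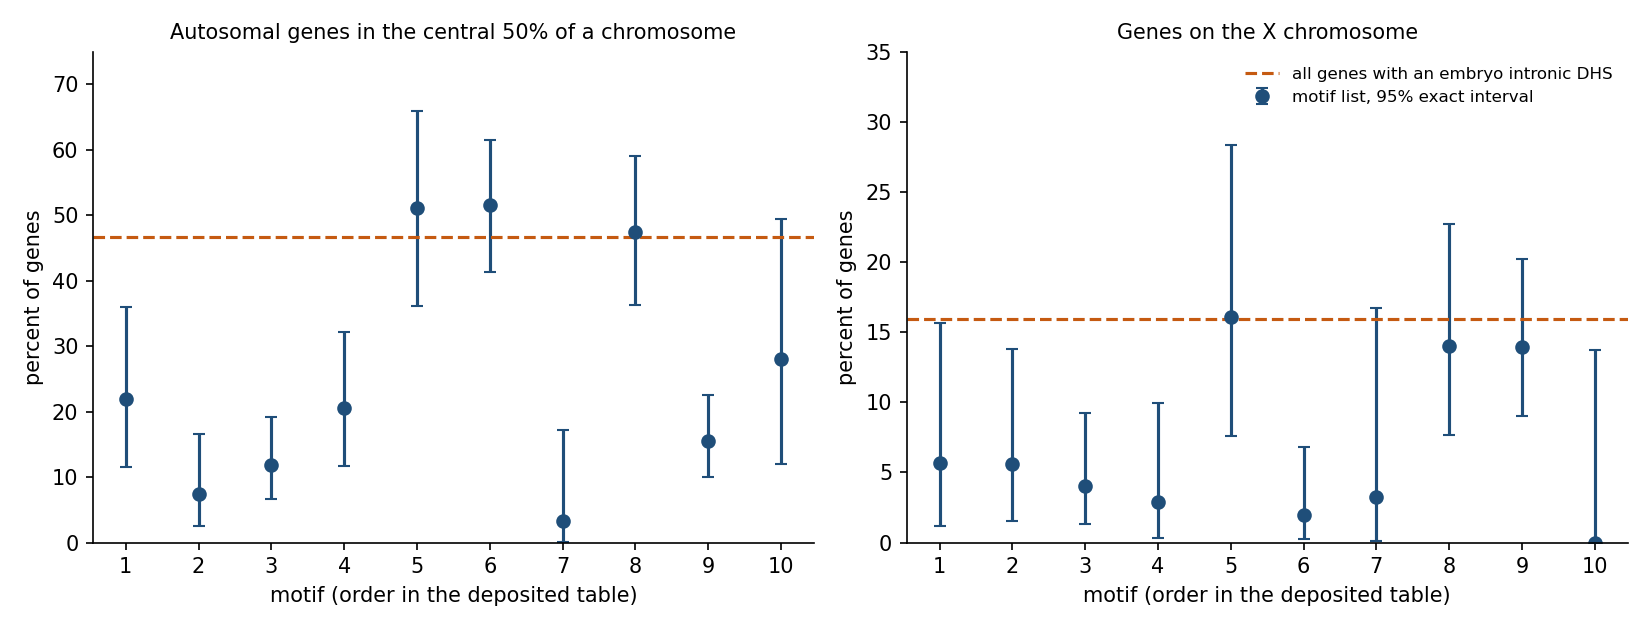
Percent of autosomal listed genes in the central 50% of a chromosome (left) and percent of listed genes on the X chromosome (right) for the 10 motifs. Points are shares, bars are 95% exact binomial intervals, and the dashed line is the share of all genes with an embryo intronic DHS (46.7% and 15.9%). Motifs 5, 6 and 8 lie near the line on the left, and motif 7 lies lowest at 3.33%.

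Most genes of the embryo motifs also had open chromatin in L1 arrest. A noncoding L1 DHS was assigned to 597 of the 699 genes (85.4%, interval 82.6% to 87.9%), against 73.2% of all genes with an embryo intronic DHS. The number and score of embryo DHS moved with the L1 share. Over all genes weighted to the same number of embryo intronic DHS the share was 80.0%, and weighted to that number and to the score of the strongest it was 83.1%. The latter lies within the interval of the listed genes.

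By motif the share ran from 64% to 100%. All 31 genes of motif 7 had an L1 noncoding DHS (interval 88.8% to 100%), against 78.7% of all genes weighted to the same DHS number and score. Motif 2 had 69 of 71 genes (97.2%, interval 90.2% to 99.7%), against 88.9% weighted. Motif 8 had 93.5%, with 93.0% weighted inside its interval, and motif 5 had 91.1% against 84.0% with an interval that included it. The intervals of motifs 7 and 2 lay above these weighted shares. Motifs 3, 4 and 9 had 83.7%, 85.7% and 87.3%, against 81.9%, 75.9% and 85.1% weighted, with intervals that included those. Motif 1 had 77.4%, motif 6 had 77.7% and motif 10 had 16 of 25 genes (64%, interval 42.5% to 82.0%). These lay below the weighted shares of 79.5%, 79.8% and 74.2%, which their intervals included, while motifs 1 and 6 lay above the unweighted 73.2%.

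The same could be asked of the DHS themselves. Of the 11672 embryo intronic DHS, 49.4% overlapped an L1 DHS by at least 1 bp, and of the 2313 in listed genes 1362 did (58.9%, interval 56.8% to 60.9%). Over all DHS weighted to the same score and width the share was 56.8%. A listed gene can have several intronic DHS, and which of them holds the motif is not given. The 263 DHS that were the only intronic DHS of a listed gene avoid this, and 156 of them overlapped an L1 DHS (59.3%, interval 53.1% to 65.3%), against 44.7% of all such DHS in the genome and 53.3% of all embryo intronic DHS weighted to their score and width.

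Among these sole DHS the shares of the motif lists were far apart. For motif 2, 15 of 16 overlapped an L1 DHS (93.8%, interval 69.8% to 99.8%), and for motif 9, 59 of 80 did (73.8%, interval 62.7% to 83.0%). For motif 6 the count was 20 of 46 (43.5%) and for motif 10 it was 2 of 14 (14.3%, interval 1.78% to 42.8%). The intervals of motifs 2 and 10 did not overlap, nor did those of motifs 9 and 10 or of motifs 9 and 6. Motif 7 had 6 of 7, motif 5 had 15 of 21, motif 3 had 24 of 41, motif 1 had 9 of 18, motif 4 had 13 of 27 and motif 8 had 6 of 13.

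Scores moved with this order in part. The median score of the sole DHS of motif 9 was 271, higher than 74.6% of all embryo noncoding DHS. The score is the authors' own and its scale is not given, so it only ranks sites within the embryo list. For motif 2 the median ranked above 57.6% of DHS, for motif 6 above 47.2%, for motif 10 above 40.2% and for motif 7 above 28.7%. The sole DHS of motif 7, 6 of 7 of them open in L1, thus had low embryo scores. Weighted to the same score and width, 66.4% of all embryo intronic DHS overlapped an L1 DHS for motif 9, 49.9% for motif 6 and 38.8% for motif 10. The intervals of these motifs included those weighted shares. For motifs 2 and 7 the weighted shares were 67.1% and 32.1%, below their intervals, which start at 69.8% and 42.1%. For motifs 1, 3, 4, 5 and 8 they were 37.0%, 49.5%, 34.2%, 51.1% and 51.7%, inside their intervals.

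**Figure D5:**
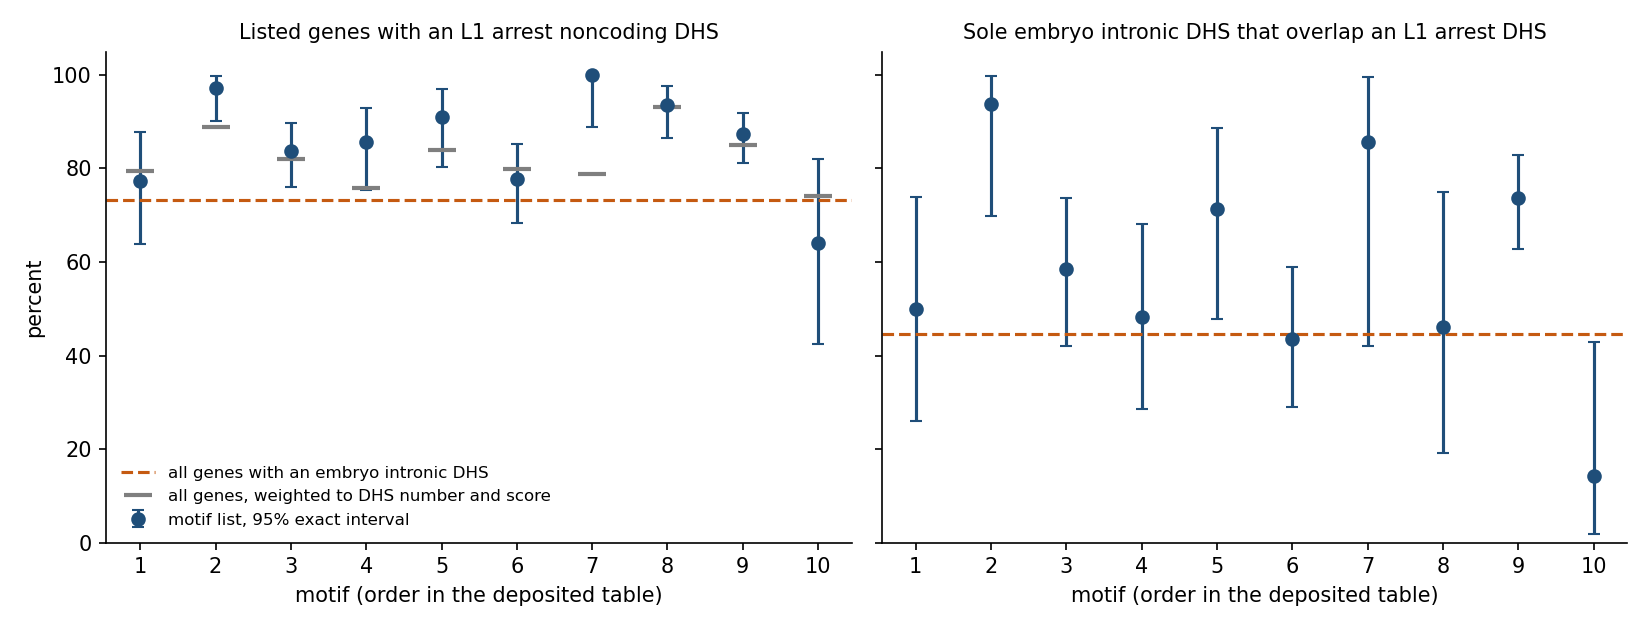
Percent of listed genes with a noncoding DHS in L1 arrest (left), and percent of DHS overlapping an L1 DHS among those that are the only embryo intronic DHS of a listed gene (right), for the 10 motifs. Points are shares with 95% exact binomial intervals, dashed lines are all genes with an embryo intronic DHS (73.2% and 44.7%), and grey marks on the left are all genes weighted to the same DHS number and strongest score. On the right motif 2 lies at 93.8% and motif 10 at 14.3%.

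Single DHS show the range, and these were picked after their values were seen, as sole DHS of genes with a symbol. Whether each of them holds the motif was not checked. For motif 9 the highest score among such sole DHS was 5294, at the DHS of bbs-1, a gene of the BBSome complex of sensory cilia, and an L1 DHS covered its whole 121 bp. The DHS of srsx-35, a serpentine receptor gene, at chrV:20681961-20682110 scored 2681. It held 4 embryo footprints, short protected stretches inside a DHS, and 3 L1 footprints, and an L1 DHS covered all 150 bp. The DHS of osm-5, an intraflagellar transport gene of sensory cilia, at chrX:2990181-2990330 scored 540, and 130 bp of it were covered. For motif 2 the DHS of clec-126, a C-type lectin gene, at chrII:3519781-3519897 scored 3181 and was covered over its whole 117 bp. For motif 10 the DHS of ced-2, an engulfment gene, at chrIV:1600961-1601110 scored 153, held 3 embryo footprints and was not covered by an L1 DHS. For motif 3 the DHS of elt-7, a GATA factor of the intestine, at chrV:4771581-4771714 scored 139 and held no footprint, and no L1 DHS covered it. The elt-7 gene still had 3 L1 noncoding DHS, all outside introns, and 3 in embryos.

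Footprints were more common in the DHS of listed genes. An embryo footprint lay in 1926 of the 2313 DHS (83.3%, interval 81.7% to 84.8%), against 72.4% of all embryo intronic DHS. DHS narrower than 150 bp were 29.0% of those in listed genes and 45.9% of all, so the DHS also differed in width. Weighted to the same score and width the share over all DHS was 81.4%. By motif the share ran from 80.0% (motif 7) to 86.5% (motif 10), and the 10 intervals overlapped.

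Of the 699 listed genes 102 had no L1 noncoding DHS, and a few of these had several in embryos. For motif 1 the small GTPase gene ral-1 had 6 embryo noncoding DHS, 1 of them intronic, and rog-1, also listed for motif 3, had 4. For motif 6 dhhc-7, named as a palmitoyltransferase gene, had 4, and the collagen gene col-113 had 2. For motif 8 chat-1, epg-6 and the ribosomal protein gene rpl-42 had 2 each. No gene with a symbol had at least 2 embryo DHS and none in L1 in the lists of motifs 2, 4, 5, 7 and 10. This does not hold for genes with a sequence name only. Among them Y39A3CL.4 (motif 4) and W07A8.2 (motif 5) had 2 embryo DHS each and none in L1.

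The opposite case was more L1 than embryo noncoding DHS, which held for 47 of the 699 genes (6.72%, interval 4.98% to 8.84%) and for 3.84% of all genes. Motif 7 had 7 of 31 such genes (22.6%, interval 9.59% to 41.1%), motif 4 had 10 of 70 (14.3%) and motif 2 had 10 of 71 (14.1%, interval 6.97% to 24.4%). Motif 8 had none of 93, with an interval up to 3.89%. The gcn-1 gene (motifs 4 and 7) had 8 embryo and 9 L1 DHS, par-4 had 3 and 4, and smc-3 had 2 and 3. The lectin gene clec-92 (motifs 2 and 3) had 3 and 5, top-3, a topoisomerase gene (motif 5), had 2 and 4, and cmk-1, a calmodulin-dependent kinase gene (motif 9), had 6 and 8. Motifs 4 and 7 share most of these genes, so their counts are not separate evidence.

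Of 13 gene lists of tissues, factors and pathways, 45 of the 257 members with an embryo intronic DHS stood in a motif list (17.5%, interval 13.1% to 22.7%), against 12.1% of all genes. These members had a median of 6 intronic DHS, and the median of the 257 was 2. Among members with 1 intronic DHS 3 of 88 stood in a motif list (3.41%, interval 0.709% to 9.64%), against 7.87% of all such genes. Among those with 10 or more 14 of 26 did (53.8%, interval 33.4% to 73.4%), against 44.4% of all such genes. Both intervals included the share of all genes.

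Axon guidance and adhesion genes had the highest share, 13 of 48 (27.1%, interval 15.3% to 41.8%). They included ptp-3, hmr-1, unc-53 and unc-73, the last with 18 embryo and 15 L1 DHS, and 5 of the 13 stood in the list of motif 8 alone and 1 in the lists of motifs 4 and 8. The 13 genes had a median of 11 embryo intronic DHS, and the 48 had a median of 4. Wnt and beta-catenin genes had 3 of 13, the Frizzled receptor gene lin-17 and the kinase gene lit-1 for motif 8 and the beta-catenin gene wrm-1 for motif 10. Their embryo and L1 counts were 9 and 5, 13 and 11, and 5 and 2. Heterochronic and hormone receptor genes had 4 of 20, among them lin-14 (motif 5, 20 and 12) and daf-12 (motif 9, 15 and 9). Neuron terminal identity factors had 5 of 25, of which vab-7, lin-11 and cog-1 stood in the list of motif 8, ahr-1 in that of motif 4 and che-1 in that of motif 10.

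Ion channel genes had 8 of 43, with unc-2, a calcium channel gene (motif 8), at 12 embryo and 11 L1 DHS. The EGF, FGF, Ras and Notch list had 3 of 20 and the early lineage list 3 of 20, the latter with par-2 and par-4. The tissue lists had 1 or 2 members each in a motif list. Body wall muscle had 2 of 26 (unc-89 and lev-11), the pharynx 1 of 11 (pha-1), the intestine 1 of 7 (elt-7), the epidermis 1 of 19 (grh-1), pan-neuronal genes 2 of 17 (unc-31 and unc-44) and Hox and cofactor genes 1 of 9 (vab-7). With so few members their intervals all included 12.1%. Of 30 defining markers of 6 tissues, 25 had an embryo noncoding DHS, and the germ line had 2 of its 5. An embryo intronic DHS, without which a gene could not be listed, was present in 20 of the 30. Of these 20, 3 stood in a motif list (unc-89, elt-7 and unc-31), beside 12.1% of all genes with an embryo intronic DHS.

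Serpentine receptor genes, the chemoreceptor families of the nematode, were counted after the lists had been seen. They were 15 of the 165 genes of motif 9 (9.09%, interval 5.18% to 14.6%), against 2.78% of all genes with an embryo intronic DHS, and 13 of the 15 had an L1 noncoding DHS, as had 144 of the 165 genes of motif 9 and 113 of all 161 serpentine receptor genes with an embryo intronic DHS. Motif 3 had 5 of 123 (4.07%), and motifs 4, 6 and 7 had none. Among the 15 were srh-182, sre-37 and sri-29, each with 1 embryo intronic DHS.

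The authors' deposited table of Gene Ontology terms gave between 6 and 50 terms per motif. Of the 10 motifs 7, numbers 1, 2, 3, 5, 6, 8 and 10, had 50, the most that any motif of the 57 had. All 413 entries had a deposited p-value under 0.05 and 301 had one under 0.001. Metabolic process stood in the table for 8 motifs, whereas 114 of the 188 different terms stood there for 1 motif only. Lists of 50 terms may have been cut at that number, so a term missing from one need not be absent from its genes. No source used here names the tool or any adjustment behind these p-values.

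Terms that named a process often stood in the authors' deposited table for several motifs, and no difference between motifs was tested. The number of all genes with a term is the authors' own, and no share over all genes was computed. Endocytosis, a term of 825 genes, stood there for motif 3 (21 of 123 listed genes), motif 4 (9 of 70) and motif 10 (6 of 25). RNA splicing and mRNA processing, terms of 61 and 88 genes, each stood there for motif 10 (5 of 25 genes) and motif 1 (4 of 53). Locomotion, a term of 1568 genes, stood there for motifs 1, 2, 3 and 8, with 12, 15, 18 and 25 genes. Response to stimulus, a term of 2110 genes, stood there for motif 5 (19 of 56), motif 8 (34 of 93) and motif 9 (33 of 165). Signal transduction, a term of 1258 genes, stood there for motif 8 (23 genes) and motif 9 (24 genes). Apoptotic process, a term of 458 genes, stood there for motif 6 (17 of 103) and motif 10 (6 of 25). Reproduction, a term of 2674 genes, was given for 7 motifs, among them motif 4 with 20 of 70 genes at a p-value of 3e-06. Regulation of signal transduction (8 of 71 genes, of 220 with the term) was printed for motif 2 only. Body morphogenesis (19 of 93 genes, of 618 with the term) was printed for motif 8 only. Other lists of 50 terms may have been cut before these terms. Motif 5 had 13 terms with a p-value printed as 0, so that they have no order. Of these, cellular process, a term of 5920 genes, had the most listed genes (34 of 56). In motifs 6 and 8 all 50 terms were listed with a p-value of 0 as printed. Motif 7 had 6 terms, led by chemical homeostasis with 2 genes at 0.007375, and 5 of the 6 rested on 1 gene.

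The authors' deposited anatomy table gave 19 entries in 14 tissues for 6 of the 10 motifs, all marked as enriched. Its value is the fraction of hits with a similar or greater enrichment, so that lower is rarer. Nervous system terms stood in it for motifs 1, 5 and 6. Motif 1 had head neurons (0.02646), tail (0.03539), ventral cord neurons (0.03684), nerve ring (0.04094) and tail neurons (0.04437). Motif 5 had ventral cord neurons (0.02159), nerve ring (0.02542), dorsal nerve cord (0.03765) and ventral nerve cord (0.03902). Motif 6 joined neurons and muscle, with anal depressor muscle (0.02015), body wall musculature (0.02148), head neurons (0.02178) and tail neurons (0.03964).

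Motif 9 also had muscle terms, vulval muscle (0.004) and body wall musculature (0.00754), and the skin term hypodermis (0.03287). Motif 3 had Cell (0.00043), the lowest of the 19 values, and coelomocyte (0.03089), the scavenger cell type of the body cavity. Motif 4 had germline (0.03495). Motifs 2, 7, 8 and 10 had no entry. Of the 26 body wall muscle genes with an embryo intronic DHS, 2 stood in a motif list, unc-89 in those of motifs 1 and 8 and lev-11 in that of motif 6, and neither stood in that of motif 9. None of the 5 germ line markers had an embryo intronic DHS, so none could stand in any of these lists.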

How the data were processed

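The authors called DHS with HOTSPOT, kept reproducible ones, removed those on annotated repeats and merged replicates by stage, according to the series design text. FastQC, Bowtie 1.0.0, SAMtools and the ce10 build are named in the submitters' processing notes. Read lengths of 50 and 76 bp were mixed within each stage, per the labels' protocols. The DHS lists carry a deposited score per site, on a scale that no source used here gives. The motif table (MEME version 4 format, per the file headers) gives base probabilities as a fraction, with a p-value per word as deposited by the authors. The anatomy table gives a deposited fraction of hits, and the term table a deposited p-value. In 1 term entry of motif 4 more listed genes than genes of the term are given.

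Gene entries were joined to the embryo and L1 gene tables by WormBase identifier. Overlap meant at least 1 bp. Shares carry 95% exact binomial intervals (scipy), which cover counting error only, treat neighbouring genes as independent and say nothing of the spread between animals. Weighted shares average all genes or DHS within classes of DHS number, score quintile or width (narrower than 150 bp or not). The lists merge replicates, so no test between replicates was made, and no source used here gives reads per site. Functions were tested on simulated data. The motifs, gene lists and genes to name were chosen with earlier results of these data known. Genes named are those in most lists, those with most embryo DHS per motif, members of the 13 lists, and those with no or more L1 DHS. Positions count from 1.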

Additional observations from a re-analysis of the deposited data

How the results depend on the processing

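The share of listed genes with an L1 noncoding DHS exceeded that of all genes with an embryo intronic DHS by 12.2 percentage points. The excess was 20.7 points for L1 DHS in an intron and 17.8 points for at least 2 L1 DHS. It was 5.41 points against genes weighted to the same number of embryo intronic DHS and 2.33 points when the strongest score was weighted too. For embryo intronic DHS that overlap an L1 DHS the excess was 9.48 points, 2.05 points against DHS weighted to score and width, and 14.6 points for the DHS that are alone in their gene. Weighting to score and width turned the excess of motif 8 from 6.36 to -4.16 points and that of motif 6 from 1.39 to -3.98 points, and that of motif 1 from -1.03 to about 0. The weighted, sole-DHS and central-stretch settings were chosen after seeing the data, and the cause of these shifts was not tested. Coverage of at least 0.5 of the DHS, other L1 lists, omission of X, another background, coding genes only and a p-value under 0.001 left the remaining main values within their interval or 1.5 times. The deficit of listed genes in the central 50% of autosomes was -20.2 points, and lay between -22.4 and -18.7 points for the central 60% and 40%. Repeats within a list do not occur. The overlap of single motif sites with embryo DHS was not run, since site positions were not used here. No paired analysis was possible because the lists merge the replicates of each stage and no replicate letter occurs in both stages. By motif, the L1 share of genes lay above that of all genes for 9 of 10 motifs at each unweighted setting, for 8 when DHS number was weighted and for 7 when the score was weighted too. The number of genes limits the precision, since motif 10 has 25 genes and motif 7 has 31.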
